A study of Mus musculus with 6 samples.

Results

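The class I antigen presentation machinery was followed here through 10 mouse genes, those of the classical heavy chains H2-K1 and H2-D1, the light chain B2m, the peptide transporter Tap1 and Tap2, the loading factor Tapbp, the inducible proteasome subunits Psmb8, Psmb9 and Psmb10, and the transactivator Nlrc5. Every probe set paired with one of these genes was taken, together with every probe set paired with several genes that include H2-K1 or H2-D1. This gave 30 probe sets, of which 27 were paired with 1 gene and 3 with several, out of 45037 in the whole series, and 10 of 18193 genes. Intestinal epithelial cells of 3 caspase-8 deficient mice (casp8 flox, villinCre positive) were compared with those of 3 floxed control mice (casp8 flox, villinCre negative), all of the C57BL/6 strain, with 1 3′ Affymetrix array per mouse. All 6 mice carried floxed casp8. Cre recombinase is driven by the promoter of villin, a gene of the gut epithelium, so that other cells of a preparation keep the gene. Age, sex and gut segment are not given in the labels. The comparison asks what loss of caspase-8, the protease that starts death receptor apoptosis and restrains necroptosis, does to gene expression in these cells. Values are RMA expression on the log2 scale.

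MHC class I molecules show fragments of a cell's own proteins to CD8 T cells. The fragments are cut in the cytosol by the proteasome, pumped into the endoplasmic reticulum by the TAP1-TAP2 transporter, and loaded onto a heavy chain paired with beta-2 microglobulin with the help of tapasin. Interferons raise most of these genes and replace the catalytic subunits of the proteasome by 3 inducible ones, which gives the immunoproteasome, and NLRC5 acts as the transactivator of class I genes in the nucleus. In the gut, enterocytes and the lymphocytes that lie between them both express this machinery.

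By RefSeq, 7 of the 10 genes lie on chromosome 17, B2m on chromosome 2, and Psmb10 and Nlrc5 on chromosome 8. Psmb9, Tap1, Psmb8 and Tap2 follow each other on chromosome 17, and Tap1 and Psmb9 are read in opposite directions from a shared stretch of 225 bases. RefSeq promoter sequences of build GRCm38.p6 were found for 8 of the 10 genes, and the 250 bases before each start site were searched on both strands. The shared Tap1 and Psmb9 stretch is shown because both genes were highest and lowest on the same arrays. Tap2, Psmb8 and Nlrc5 had the same highest and lowest arrays, so this pattern is not particular to the pair. The other 3 sequences are shown because the heavy and light chain genes stood on the other side of 0. The search covered the CCAAT box, the cAMP response element core TGACG, the interferon-stimulated response element (GAAA, any 2 bases, then GAAA), its shorter form GAANNGAAA, the gamma-activated site TTCNNNGAA and enhancer A, a class I promoter element that binds NF-kappa B. In the first and second sequences capitals mark every match on either strand. In the H2-K1 and H2-D1 lines the first block of capitals is enhancer A and the second the shorter interferon element, read on the other strand.
Tap1 and Psmb9, shared stretch, chr17:34187331-34187555, plus strand (Tap1 strand): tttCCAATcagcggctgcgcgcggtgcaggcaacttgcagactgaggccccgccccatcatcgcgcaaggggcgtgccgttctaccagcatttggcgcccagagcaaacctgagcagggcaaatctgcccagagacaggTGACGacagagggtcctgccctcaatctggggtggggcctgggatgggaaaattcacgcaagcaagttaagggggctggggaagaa
B2m, last 200 bases before the start site, chr2:122147487-122147686, plus strand: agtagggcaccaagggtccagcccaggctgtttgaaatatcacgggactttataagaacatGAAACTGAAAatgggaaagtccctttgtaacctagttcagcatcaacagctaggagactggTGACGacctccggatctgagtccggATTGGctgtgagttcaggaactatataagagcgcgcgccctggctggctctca
H2-K1, 30 bases from the first base of enhancer A, chr17:34000429-34000458, minus strand: GGGGATTCCCCatctccacagTTTCACTTC
H2-D1, 30 bases from the first base of enhancer A, chr17:35262923-35262952, plus strand: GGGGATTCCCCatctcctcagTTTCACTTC

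The H2-K1 and H2-D1 stretches shared 29 of 30 bases. Enhancer A was found in the windows of H2-K1 and H2-D1 and in 10 of 32851 promoter windows in all (0.0304%). The full interferon element was found in the B2m window and in 2.98% of all windows. Its shorter form was found in those of H2-K1 and H2-D1 and in 6.31% of all windows. TTCNNNGAA occurred in the Psmb8 window and in 7.02% of all windows. CCAAT was present in 6 of the 8 member genes against 33.8% of all windows, and TGACG in 5 against 17.8%. Tap1 and Psmb9 hold the same CCAAT and the same TGACG match, in their shared stretch, and each gene is counted. No match of the full interferon element, its shorter form or the gamma-activated site lay in the Tap1, Psmb9, Psmb10 or Tapbp windows. These are matches of letters, and the arrays do not measure binding to them.

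The arrays carried the defining transcripts of gut epithelium at high levels. Vil1, which encodes villin, read 12.84, 12.87 and 12.89 in the deficient cells and 12.58, 12.58 and 12.59 in the controls, and the epithelial list of 12 genes stood between −0.04 and 0.08 around the control mean on every array. The 12 went both ways, 8 positive and 4 negative, with 0 passing. At an unadjusted p under 0.05 (limma) there were 3, against 14.1% of all probe sets. For this and the other gene lists, the share over genes at that threshold was not computed. The groups did not overlap in 6 (5 higher, 1 lower), against 22.7% of all genes, so the steady mean covers genes that differ in both directions. Cdx1, an intestinal homeobox factor and the gene of that list with the smallest p, read 8.68, 8.71 and 8.48 in the deficient cells and 9.03, 9.43 and 8.86 in the controls. Casp8 itself read 9.27, 9.56 and 10.40 in the deficient cells, against 10.53, 9.74 and 10.24 in the controls (log2 −0.43, SE 0.31, limma adjusted p = 0.57). Since the deleted exons are not named in the labels, this probe set is no check of the genotypes. RNA quality, read from Gapdh as its 3′ probe set minus its 5′ one (larger in degraded RNA), was 0.29, 0.21 and 0.23 in the deficient arrays and 0.68, 0.93 and 0.22 in the control arrays. The poly-A control probe sets, which read transcripts usually spiked into the RNA before labelling, averaged 8.07, 7.96 and 7.40 in the deficient arrays and 9.09, 8.75 and 8.31 in the control arrays, without overlap, and the part of this difference in the results was not tested. Deficient replicate 1 stood apart with a list of 8 endothelial genes that lay 2.57 above the control mean, against −0.02 and 0.02 in the other deficient arrays.

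Loss of caspase-8 in the epithelium came with no change of a class I gene that passed the test. By limma with Benjamini-Hochberg adjustment over all 45037 probe sets, 0 of the 30 member probe sets passed an adjusted p of 0.05, where 143 of all probe sets (0.318%) did. At an unadjusted p under 0.05 there were 4 of 30, against 14.1% of all probe sets. The lowest adjusted p was 0.191, for an H2-D1 probe set. The 16 heavy chain and 2 B2m probe sets all had positive differences, and the 4 probe sets of inducible proteasome subunits and that of Nlrc5 had negative ones. The median difference was 0.21 over the 30 probe sets, against 0.012 over all probe sets. With 1 probe set per gene, the brightest, the median over the 10 genes was −0.16, against 0.022 over 18193 genes. The medians differ in sign, and 16 of the 30 probe sets belong to the heavy chains. By gene, 0 of 10 passed, against 0.44% of all genes with adjustment over probe sets and 0.775% with adjustment over genes, and the groups of 1 gene did not overlap, against 22.7% of all genes. Over the 10 genes the 95% confidence intervals reached no lower than −1.28 (Nlrc5) and no higher than 0.54 (H2-D1).

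**Figure D1:**
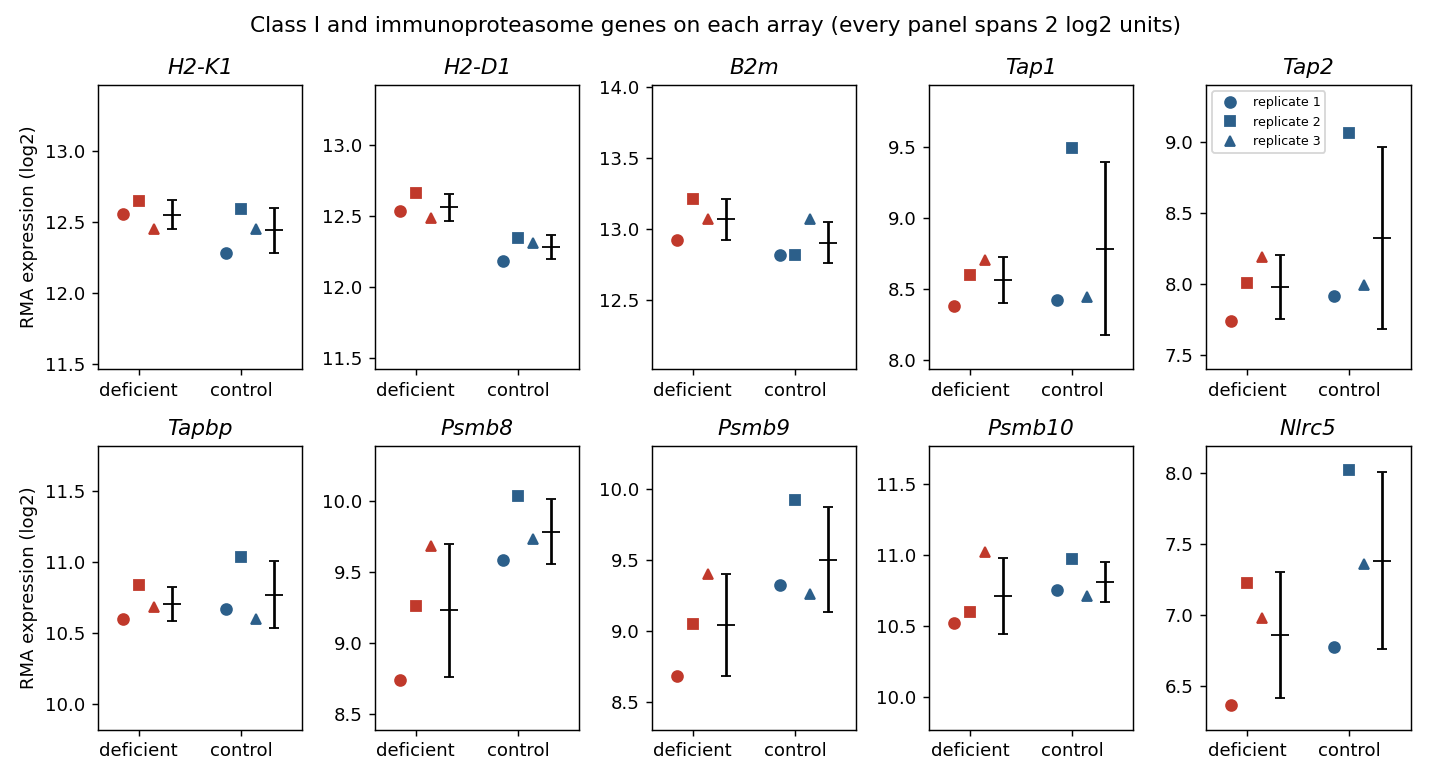
RMA expression (log2, vertical axis) of the 10 genes, each by its brightest probe set, in the 3 caspase-8 deficient arrays (red) and the 3 floxed control arrays (blue). Symbols give the replicate, used here only as the name of an array, and the bar gives mean ± SD. Only H2-D1 has groups that do not overlap.

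The heavy chains bind the peptide and form most of the surface molecule. H2-D1, by its brightest probe set, read 12.54, 12.67 and 12.49 in the deficient cells, against 12.19, 12.35 and 12.32 in the controls. Every deficient array lay above every control array, and the mean was 12.56 ± 0.09 in deficient and 12.28 ± 0.09 in control cells (SD, n = 3 each). The log2 difference was 0.28 (SE 0.11, 95% confidence interval 0.02 to 0.54, limma adjusted p = 0.326), a ratio of 1.21. It was 0.29 without deficient replicate 1, the array with the endothelial transcripts.

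H2-K1, the partner heavy chain, read 12.56, 12.65 and 12.45 in the deficient cells and 12.28, 12.60 and 12.45 in the controls by its brightest probe set. The groups overlapped, since control replicate 2 exceeded deficient replicates 1 and 3 (log2 0.11, SE 0.13, adjusted p = 0.733). The difference was 0.031 without control replicate 1, 0.062 without deficient replicate 2 and 0.187 without control replicate 2. Its other 3 probe sets stood at 0.13 to 0.21. The brightest of these read 12.07, 12.22 and 12.14 in deficient cells and 11.81, 12.01 and 11.97 in controls, without overlap (log2 0.21, adjusted p = 0.455).

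H2-D1 was covered by 9 probe sets, all with positive differences between 0.08 and 0.57. The widest was seen on a probe set of moderate brightness, at 6.02, 5.93 and 5.97 in the deficient cells against 5.70, 5.12 and 5.39 in the controls (log2 0.57, SE 0.16, limma adjusted p = 0.191). All 3 deficient arrays lay above the controls there. Some of the 9 were dim, with a mean over the arrays under the median of all probe sets. The dimmest averaged 2.68 in deficient and 2.54 in control cells. A second bright H2-D1 probe set, at 12.333, 12.533 and 12.389 in deficient and 12.098, 12.331 and 12.159 in control cells, differed by 0.22 with its groups just apart.

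Of the 3 probe sets paired with several genes, the one for H2-K1 and H2-D1 together read 11.16, 11.34 and 11.25 in deficient cells and 10.84, 11.22 and 11.01 in controls (log2 0.22, adjusted p = 0.491). That for Gm38417, H2-Q2 and H2-D1 read 4.29, 4.46 and 4.26 in deficient cells and 3.92, 4.07 and 4.12 in controls and did not overlap (log2 0.30, adjusted p = 0.319). That for H2-Q5 and H2-K1 overlapped, at 0.22 with an SE of 0.22. All 4 H2-K1 probe sets and 7 of the 9 H2-D1 probe sets have names ending in _x_at, which marks probes that may also bind related genes. Heavy chain genes are close copies of one another, so the 16 values share transcripts and are not separate measurements of each gene.

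Among all 30 probe sets the groups did not overlap in 6, all higher in the deficient cells. Over all 45037 probe sets 19.8% did not overlap, 10.1% higher and 9.75% lower. The 6 were 3 of H2-D1, 1 of H2-K1, 1 of the several-gene probe sets and a dim one of Tap1.

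B2m, the light chain shared by all class I molecules, was measured by a pair of probe sets. The brighter read 12.92, 13.21 and 13.07 in deficient cells and 12.82, 12.82 and 13.07 in controls (log2 0.17, SE 0.13, adjusted p = 0.612). The other read 12.74, 12.93 and 12.84 in deficient cells and 12.51, 12.48 and 12.81 in controls (log2 0.24, adjusted p = 0.462). In both, control replicate 3 reached into the deficient range and the other controls lay below it. Control replicates 1 and 2, with a large Gapdh difference, were also left out together, which leaves control replicate 3 as the only control array. The brighter B2m probe set then stood at −0.0014. Leaving out 1 array, it ran from 0.093 (without deficient replicate 2) to 0.25 (without control replicate 3).

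**Figure D2:**
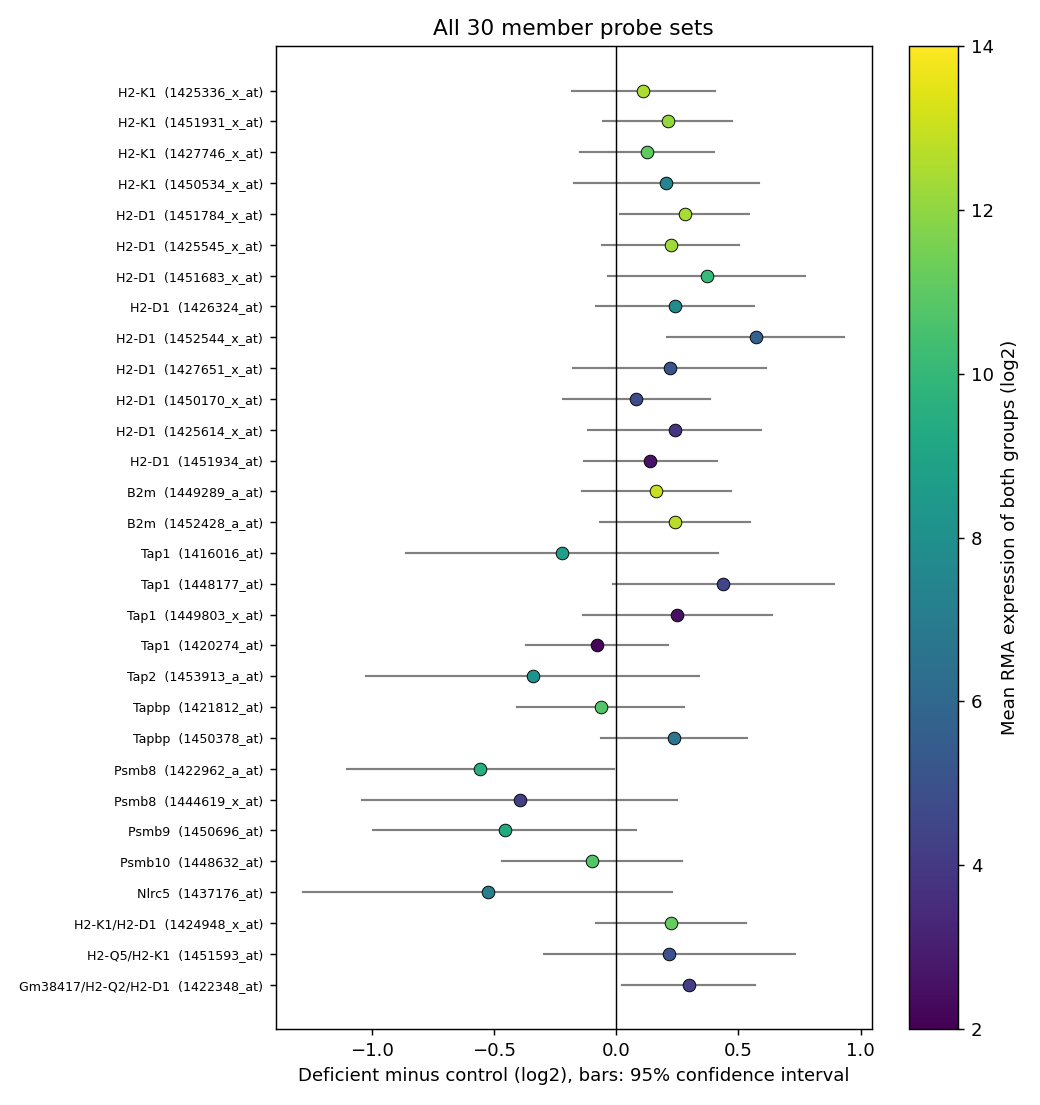
Deficient minus control differences (log2, horizontal axis) of all 30 member probe sets with 95% confidence intervals from limma, coloured by the mean RMA expression of both groups. Heavy chain and B2m probe sets lie right of 0 and those of Psmb8, Psmb9, Psmb10 and Nlrc5 left of 0, and none passed the adjusted test.

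The inducible subunits, which change the cuts the proteasome makes, had negative differences, and none passed. Psmb8, the subunit also called LMP7, read 8.74, 9.26 and 9.68 in the deficient cells, against 9.58, 10.04 and 9.73 in the controls. Deficient replicate 1 was the lowest array and control replicate 2 the highest, and deficient replicate 3 lay above control replicate 1. The mean was 9.23 ± 0.47 in deficient and 9.79 ± 0.23 in control cells, 1.47-fold lower without passing (log2 −0.56, SE 0.24, 95% confidence interval −1.10 to −0.01, limma adjusted p = 0.346). Leaving out 1 array, the difference ran from −0.78 (without deficient replicate 3) to −0.31 (without deficient replicate 1). The other Psmb8 probe set was dim and stood at −0.39 (adjusted p = 0.567).

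Psmb9, or LMP2, which shares its upstream stretch with Tap1, read 8.68, 9.05 and 9.40 in deficient cells and 9.32, 9.92 and 9.26 in controls. The order of arrays was like that of Psmb8 at both ends, and the groups overlapped (log2 −0.46, SE 0.23, 95% confidence interval −0.99 to 0.08, adjusted p = 0.428). It was −0.24 without control replicate 2, −0.28 without deficient replicate 1, −0.63 without deficient replicate 3 and −0.18 with the Gapdh difference as a covariate. Psmb10, the subunit also called MECL-1, read 10.52, 10.60 and 11.02 in deficient and 10.75, 10.98 and 10.71 in control cells, with its highest value in a deficient array (log2 −0.10, SE 0.16, adjusted p = 0.816). It was −0.0039 without deficient replicate 1, −0.043 without deficient replicate 2, −0.019 without control replicate 2 and −0.25 without deficient replicate 3.

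Each inducible subunit takes the place of a constitutive one in new proteasomes, so each was also set against its counterpart within an array. The level of such a difference depends on the probes, and only its change between groups is read. Psmb8 minus Psmb5 was −1.35, −0.70 and −0.74 in the deficient cells and −0.56, 0.15 and −0.40 in the controls, a change of −0.66. Psmb9 minus Psmb6 was −1.73, −1.46 and −1.45 in the deficient cells and −1.33, −0.54 and −1.40 in the controls, a change of −0.46. Psmb10 minus Psmb7 was 1.97, 1.82 and 1.98 in deficient cells, against 2.20, 2.49 and 2.12 in controls, a change of −0.34.

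In all 3 pairs every deficient array lay below every control array. Among single genes 22.7% did not overlap, and the share over pairs of genes was not computed. Taken alone, Psmb8, Psmb9 and Psmb10 each overlapped between groups, and they correlated with each other over the arrays (r 0.83 to 0.95). The exact two-sided permutation test gave p = 0.1 for each pair, also after adjustment over the 3, which is the smallest value that 3 against 3 arrays allow, so the design could not reach 0.05. Without control replicate 2 the changes were −0.46, −0.18 and −0.23, and without deficient replicate 1 they were −0.45, −0.36 and −0.37. The constitutive subunits themselves stood at 0.11 (Psmb5), 0.001 (Psmb6) and 0.25 (Psmb7), with limma adjusted p between 0.490 and 0.999. Psmb10 stood at −0.10, so most of the change of Psmb10 minus Psmb7 came from the higher Psmb7 values.

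**Figure D3:**
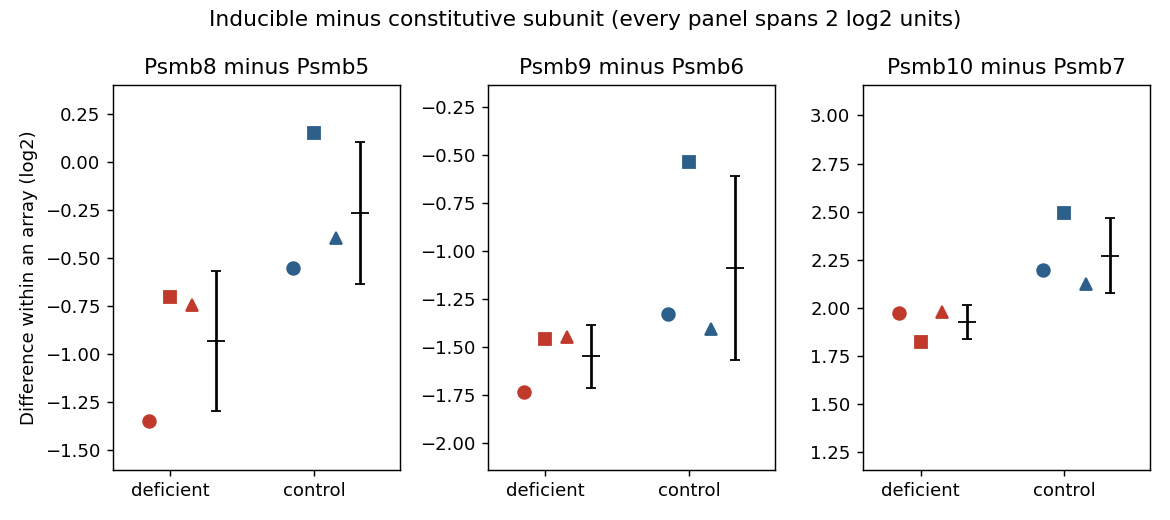
Inducible minus constitutive catalytic subunit within each array (log2, vertical axis), for 3 deficient (red, left) and 3 control (blue, right) arrays, with mean ± SD; symbols give the replicate as a name. The deficient arrays lie below the control arrays in each panel, and control replicate 2 (square) is the highest array in each.

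Transport and loading genes turned on 1 control array. Tap1, a subunit of the peptide pump, read 8.38, 8.60 and 8.70 in the deficient cells, against 8.42, 9.49 and 8.44 in the controls, by its brightest probe set. Control replicate 2 lay 1.06 above the mean of the other controls, and the remaining arrays spanned a narrow range (log2 −0.22, SE 0.28, adjusted p = 0.759). Tap2, the other part of the pump, showed the same array apart, at 7.75, 8.01 and 8.20 in deficient and 7.92, 9.06 and 7.996 in control cells (log2 −0.34, SE 0.30, adjusted p = 0.642). Without control replicate 2 the differences were 0.13 for Tap1 and 0.03 for Tap2.

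The remaining Tap1 probe sets were dim, with a mean over the arrays under the median of all probe sets. The brightest of them read 4.73, 4.93 and 4.56 in deficient cells, against 3.88, 4.52 and 4.52 in controls, and stood at 0.44, on the other side of 0 from the Tap1 probe set above and without overlap (adjusted p = 0.367). The other pair stood at 0.25 and −0.08. Tapbp encodes tapasin, which holds the empty heavy chain next to the pump. It read 10.60, 10.84 and 10.69 in deficient and 10.67, 11.04 and 10.60 in control cells (log2 −0.06, SE 0.15, adjusted p = 0.881). Its second, less bright probe set stood at 0.24 (adjusted p = 0.456), so that Tap1 and Tapbp each had probe sets on both sides of 0.

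Nlrc5, the transactivator of class I promoters, had the largest SE of the 10 genes. It read 6.37, 7.23 and 6.98 in the deficient cells, against 6.78, 8.02 and 7.36 in the controls. Deficient replicate 1 was again lowest and control replicate 2 highest, and control replicate 1 lay under deficient replicates 2 and 3. The difference was −0.53 (SE 0.33, 95% confidence interval −1.28 to 0.23, adjusted p = 0.514). It was −0.21 without control replicate 2, −0.28 without deficient replicate 1 and −0.83 without control replicate 1. With arrays weighted by limma it was −0.045, and with the Gapdh difference as a covariate −0.34.

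The same arrays formed the extremes of most member genes. Control replicate 2 was the highest of the 6 arrays for 6 of the 10 genes, namely Tap1, Tap2, Tapbp, Psmb8, Psmb9 and Nlrc5. Deficient replicate 1 was the lowest for 6, namely Tap1, Tap2, Psmb8, Psmb9, Psmb10 and Nlrc5. H2-K1, H2-D1 and B2m were instead highest in deficient replicate 2. H2-K1 and H2-D1 were lowest in control replicate 1, and B2m was equally low in control replicates 1 and 2. Relative to the control mean, the 3 inducible subunits averaged −0.72, −0.40 and 0.00 in the deficient arrays and −0.15, 0.28 and −0.13 in the controls. The transport and loading genes averaged −0.38, −0.14 and −0.10 in the deficient arrays and −0.29, 0.57 and −0.28 in the controls, and the heavy chains 0.18, 0.30 and 0.11 in the deficient arrays and −0.13, 0.11 and 0.02 in the controls.

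Markers of leukocytes, which also express this machinery, were ordered over the arrays in a related way. Of 6 general leukocyte genes 0 passed (0 at an unadjusted p under 0.05, limma), all 6 had negative differences, and their mean stood at −0.80, −0.29 and −0.27 in the deficient arrays and −0.54, 0.35 and 0.19 in the control arrays. Ptprc, the leukocyte surface phosphatase CD45, read 9.03, 9.66 and 9.63 in deficient and 9.50, 10.14 and 10.09 in control cells. Of 13 measured T cell and intraepithelial lymphocyte genes 0 passed (0 at an unadjusted p under 0.05, limma) and 12 were negative, with means of −0.59, −0.07 and 0.03 in the deficient arrays and −0.34, 0.25 and 0.09 in the controls. Gzmb, a granzyme of cytotoxic lymphocytes, read 10.45, 11.07 and 10.89 in deficient and 10.75, 11.80 and 11.38 in control cells.

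Control replicate 2 was the highest and deficient replicate 1 the lowest array in both lists, as in the inducible subunits. Control replicate 1 was low in both. The part of the leukocyte content in the class I values was not tested, and in such bulk samples fewer cells of a type and less RNA per cell cannot be told apart. The B cell list of 6 genes, all negative and 0 passing (1 at an unadjusted p under 0.05, limma), averaged −0.79, −0.65 and −0.44 in the deficient arrays and −0.43, −0.37 and 0.80 in the controls. Of the 11 macrophage and dendritic cell genes, 4 were positive and 7 negative, and 1 passed, against 0.44% of all genes. An unadjusted p under 0.05 (limma) was reached by 2, against 14.1% of all probe sets. In 3 the groups did not overlap (2 higher, 1 lower), against 22.7% of all genes. The gene that passed was the mannose receptor Mrc1, higher at 6.60, 6.56 and 6.59 in deficient cells against 5.36, 5.48 and 5.73 in controls (log2 1.06, SE 0.13, limma adjusted p = 0.0224). Itgam, an integrin chain of myeloid cells, stood at −0.32 without overlap (adjusted p = 0.308). That list as a whole averaged −0.10, 0.07 and 0.05 in the deficient arrays and −0.35, 0.25 and 0.10 in the controls. The list of 9 fibroblast and smooth muscle genes, of which 0 passed (1 at an unadjusted p under 0.05, limma), averaged 0.94, 0.14 and −0.26 in the deficient arrays and −0.20, −0.18 and 0.38 in the controls.

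**Figure D4:**
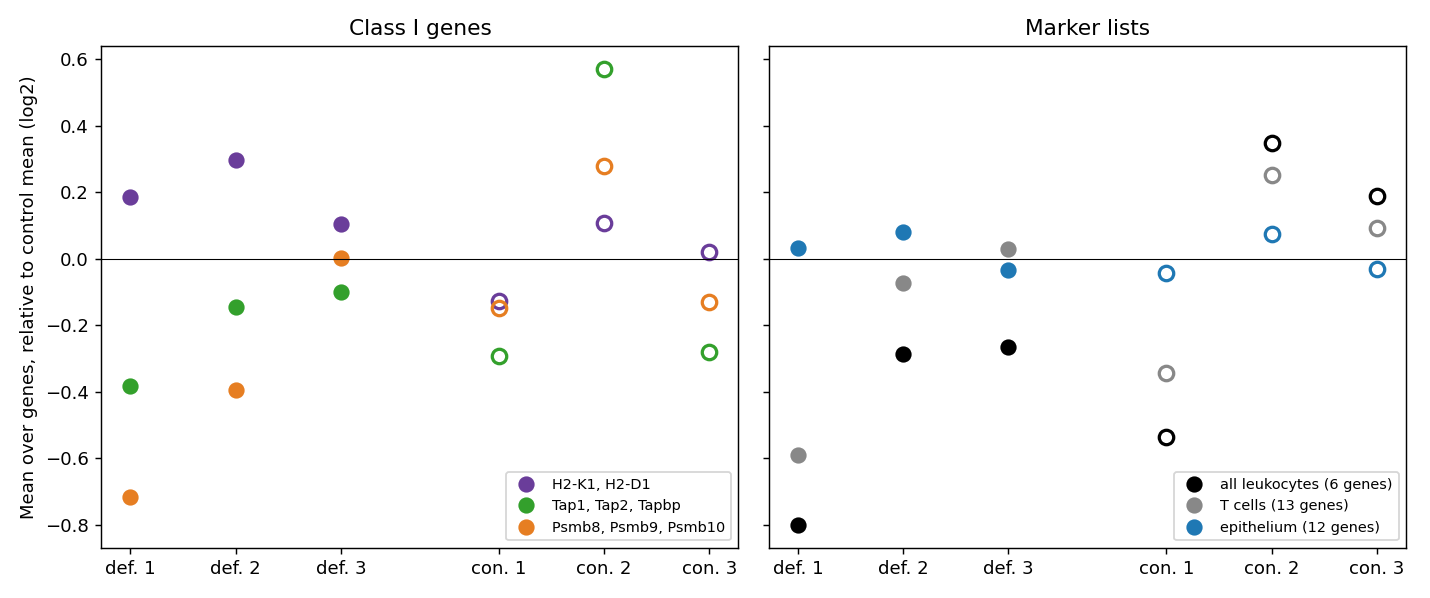
Mean over genes relative to the control mean (log2, vertical axis) for the 6 arrays, deficient (def., filled) left of control (con., open), for 3 groups of class I genes (left panel) and 3 marker lists (right panel). The transport, inducible subunit and leukocyte means are highest in control replicate 2, and the epithelial list stays near 0.

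The genes outside the group whose pattern over the 6 arrays was most like the mean profile of the 10 members were sought among 9705 genes that spanned at least 0.5 on the log2 scale. By Pearson correlation with that profile they were Gimap3 (0.996), C1qb (0.994), Gramd1a (0.993), Ipcef1 (0.993), Asb2 (0.989) and Tbx21 (0.989). These values describe 6 arrays and carry no test. The mean profile does not stand for every member. H2-D1 correlated at −0.07 with Tap1 and −0.56 with Psmb8, B2m at −0.33 and −0.21, and H2-K1 at 0.41 and −0.23. Tbx21, which encodes the lymphocyte transcription factor T-bet, read 5.17, 5.84 and 6.22 in deficient cells and 5.68, 6.93 and 5.85 in controls. C1qb, a chain of complement C1q made by macrophages, read 5.21, 5.80 and 5.86 in deficient cells and 5.43, 6.60 and 5.66 in controls. In both, control replicate 2 was highest and deficient replicate 1 lowest, and 0 of the 6 genes passed between the groups (adjusted p = 0.570 to 0.733).

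The other genes of the pathway were counted in 9 lists with 105 measured genes, each by its brightest probe set. By limma 0 of the 105 passed, against 0.44% of all genes, and 17 had an unadjusted p under 0.05, where 14.1% of all probe sets did. That share is over probe sets and not over genes, so it is an unlike baseline. The groups did not overlap in 28 of 105, 12 higher and 16 lower, against 22.7% of all genes. The median over the 105 was −0.0015.

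Other class I heavy chains were measured for 14 genes, 8 with positive and 6 with negative differences. H2-Q10, a class I gene known for a secreted product of liver, read 5.64, 5.92 and 7.02 in the deficient cells, against 5.13, 4.97 and 4.92 in the controls. The groups did not overlap and deficient replicate 3 was the highest (log2 1.19, SE 0.32, adjusted p = 0.18). Cd1d1, which presents lipids to NKT cells, read 5.54, 5.32 and 5.48 in deficient and 5.74, 5.88 and 5.93 in control cells (log2 −0.40, adjusted p = 0.212), and its other probe set stood at −0.16.

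Of the 9 genes of peptide loading and trimming in the endoplasmic reticulum, 8 had negative differences and 5 did not overlap between groups, all 5 lower, where 22.7% of all genes did not overlap. Erap1, the aminopeptidase that trims peptides to class I length, read 8.19, 8.29 and 8.18 in deficient and 8.56, 8.72 and 8.33 in control cells (log2 −0.32, SE 0.13, adjusted p = 0.337). Tapbpl, a tapasin relative that edits the bound peptide, stood at −0.29 and Uggt1, the glucosyltransferase that returns poorly loaded molecules to the loading complex, at −0.41. Relative to the control mean the loading list stood at −0.21, −0.14 and −0.17 in the deficient arrays, against 0.06, 0.05 and −0.11 in the controls.

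Of 8 cytosolic peptidases, 3 were positive. Lap3, the leucine aminopeptidase, read 11.39, 11.38 and 11.74 in deficient and 10.89, 10.63 and 10.89 in control cells, the lowest adjusted p among the 105 genes (log2 0.69, SE 0.15, limma adjusted p = 0.114). Blmh, bleomycin hydrolase, stood at −0.43, with another of its probe sets at −0.07.

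The 17 other subunits of the core and its assembly factors had a median of −0.0015 and ran from −0.23 to 0.28. Pomp, a maturation factor of new core particles, was at the upper end, at 10.90, 10.91 and 11.22 in deficient and 10.78, 10.69 and 10.74 in control cells (adjusted p = 0.382). The 20 genes of the 19S regulator had a median of 0.13, with Psmd8 at 0.27, and 4 genes of proteasome activators and inhibitor ran from −0.04 (Psme1, a subunit of the interferon-inducible PA28 activator) to 0.22 (Psme3).

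Upstream of the pathway, 13 genes of interferon receptors and signalling had a median of 0.20, with 9 positive. Of the 13, 5 had an unadjusted p under 0.05, against 14.1% of all probe sets, and 6 did not overlap (5 higher, 1 lower), against 22.7% of all genes. Relative to the control mean the list stood at 0.11, 0.21 and 0.23 in the deficient arrays and −0.11, −0.03 and 0.14 in the controls. The lower controls, replicates 1 and 2, were those with large Gapdh differences (0.68 and 0.93), and the part of RNA quality was not tested. Usp18, an interferon-induced brake on the type I receptor, read 8.80, 9.06 and 8.98 in the deficient cells, against 7.63, 7.82 and 8.68 in the controls (log2 0.90, SE 0.26, adjusted p = 0.198). Ifnar2, a chain of the type I interferon receptor, stood at 0.48 (adjusted p = 0.173) and Ptpn2, a phosphatase that turns off JAK-STAT signals, at −0.30.

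Among 17 measured regulators of class I transcription, 12 were negative, with a median of −0.10, and 0 passed. An unadjusted p under 0.05 (limma) was reached by 5, against 14.1% of all probe sets. In 7 the groups did not overlap (1 higher, 6 lower), against 22.7% of all genes. Ciita, the transactivator of class II genes, read 4.46, 4.53 and 4.35 in deficient and 4.91, 5.23 and 4.78 in control cells (log2 −0.53, SE 0.14, adjusted p = 0.188), and another of its probe sets stood at −1.49. Irf8, an interferon regulatory factor of blood cells, stood at −0.41 with groups apart, and Rfxank, a subunit of the RFX complex that binds class I and II promoters, at 0.34.

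**Figure D5:**
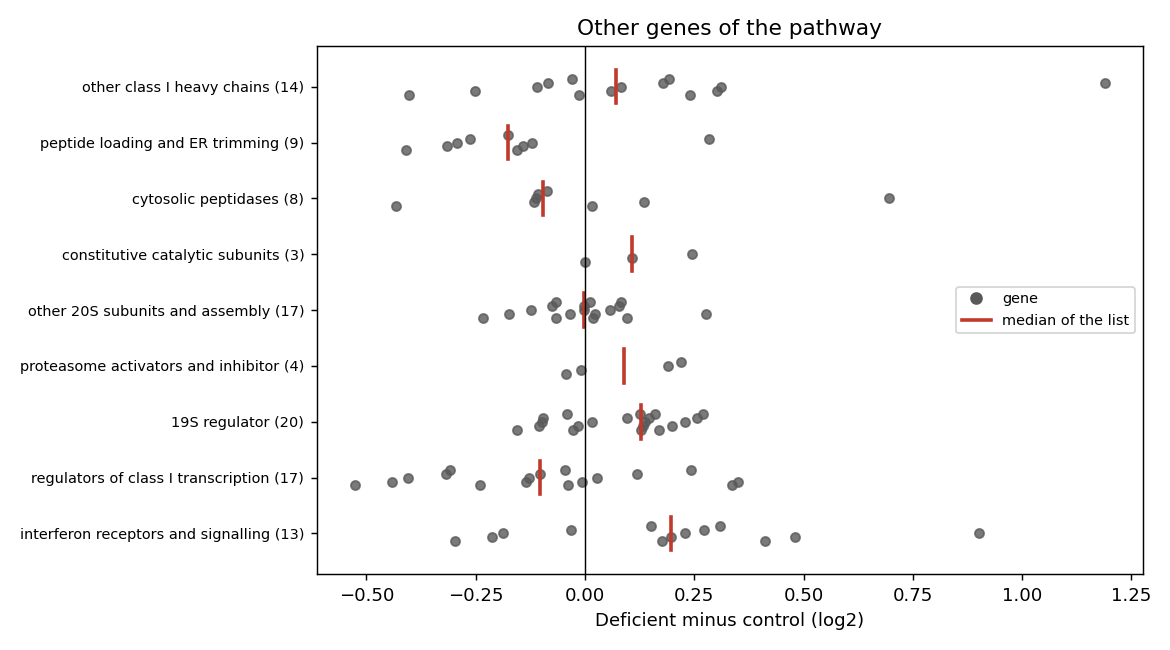
Deficient minus control differences (log2, horizontal axis) of the 105 other pathway genes in 9 lists, with the number of measured genes in brackets; red bars are list medians. Points lie on both sides of 0 in every list but the constitutive subunits, and none passed the adjusted test.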

How the data were processed

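The authors deposited log2 expression values made with RMA, per the submitters' processing notes; the sources used here give no version, settings or genome build. Per the labels' protocols, biotinylated cRNA was made from 2 ug of total RNA. RMA pulls dim signals together, which understates differences of dim probe sets, and no detection calls were used. Groups and replicates came from the titles, which call them biological. The platform annotation, which can be old, names 1 gene for 34945 probe sets, several genes for 932, and no gene for 9160. Of 45101 rows, 64 manufacturer's controls were left out. Deficient minus control was fitted with limma 3.58.1 in R 4.3.3 (lmFit, eBayes, two-sided, group alone) over 45037 probe sets, with Benjamini-Hochberg adjustment and a threshold of 0.05. On simulated data this fit recovered 57.5% of log2 changes of 1 and 96.2% of log2 changes of 2. Smaller changes were not simulated. Within-array differences were compared with exact permutation tests (scipy 1.17.1). Precision is limited by there being 3 arrays per group.

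The members, pathway lists and marker lists were chosen with earlier results of these data known. The text names all members, up to 4 genes per pathway list and 3 per marker list by smallest p, and the 6 most alike genes. Psme1 and Psme3 are among 4 genes of 1 list. Some listed genes had no single-gene probe set and were not analysed here.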

Additional observations from a re-analysis of the deposited data

How the results depend on the processing

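Under all 17 alternatives, 0 member probe sets passed, and the lowest adjusted p of any was 0.0907. Of 447 values of member probe sets under these alternatives, 430 kept their sign and 17 changed it, all of them uncalled. The cause was not tested. With array weights Tap1 (brightest probe set) stood at 0.024 and Tapbp at 0.059. With the Gapdh difference as a covariate Tap1 was 0.22, Tap2 0.10, Tapbp 0.12, Psmb10 0.0094 and the H2-Q5 and H2-K1 probe set −0.14. Leaving out control replicates 1 and 2 together leaves 1 control array. There Tap1 was 0.12, Tapbp 0.11, B2m −0.0014 and the H2-Q5 and H2-K1 probe set −0.14. With the mean over the probe sets of a gene Tap1 was 0.098 and Tapbp 0.087. Leaving out 1 array, values ran from −0.40 to 0.13 for Tap1, −0.15 to 0.023 for its dimmest probe set, −0.55 to 0.027 for Tap2 and −0.15 to 0.071 for Tapbp.

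The count over all probe sets, 143, depended more on the setting. It was 94 without cross-hybridising probe sets, 242 with a variance trend and robust prior, 1180 with array weights and 26 with the Gapdh covariate. When 1 array was left out it ran from 18 to 190. It was 18, 65 and 87 without control replicates 1, 2 and 3, and 190, 19 and 35 without deficient replicates 1, 2 and 3. Deviations from the group mean were little correlated between same-numbered arrays (0.074, 0.084 and −0.055). These values cannot show whether the mice were matched by replicate number. With the replicate block 112 of all probe sets and 0 members passed. The subunit changes kept their sign, from −0.81 to −0.45 for Psmb8 minus Psmb5, −0.61 to −0.18 for Psmb9 minus Psmb6 and −0.42 to −0.23 for Psmb10 minus Psmb7 when 1 array was left out, and within replicate numbers, as a block, p = 0.25 was the smallest possible by the exact test.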
